A study of Mus musculus with 16 samples.

Results

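The proneural basic helix-loop-helix (bHLH) genes examined here were Neurog1, Neurog2, Neurog3, Neurod1, Neurod2, Atoh1, Olig1, Olig2 and Bhlhe22. They were followed through the consensus H3K27me3 peaks that lie within 2 kb of their gene spans on mm10. Of the 9 genes, 8 had such a peak, and each of the 8 had exactly 1, so that 8 of the 102957 consensus peaks of the series are described. Olig1 had none.

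Proneural bHLH proteins bind E-box sequences in DNA as dimers with ubiquitous E proteins and drive progenitors towards a neuronal fate. Neurog1, Neurog2, Neurog3 and Atoh1 act early, in progenitors, and Neurod1 and Neurod2 act later, in differentiating neurons and, for Neurod1, in endocrine cells. Olig1 and Olig2 direct oligodendrocyte and motor neuron progenitors, and Bhlhe22 acts in neurons as a repressor. In embryonic stem cells such genes are silent, and their CpG-rich starts commonly carry H3K27me3, the histone mark that Polycomb repressive complex 2 deposits. Neurog3 is also known as the switch for endocrine cells of the pancreas.

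Mouse embryonic stem cells, kept on gelatin in medium with serum, LIF, PD0325901 (a MEK inhibitor) and CHIR99021 (a GSK3 inhibitor), were the source of chromatin for H3K27me3 ChIP-seq. There were 4 lines, with genotypes given as WT, Firre WT / Firre inducible transgene, Firre KO, and Firre Firre KO / Firre inducible transgene; Firre is a long noncoding RNA gene of chromosome X. Each line was sampled at 0 and 48 h, all samples carry doxycycline as their treatment label, and each of the 8 conditions had 1 H3K27me3 and 1 input library, without replicates. The lines are called WT control, WT transgene, KO control and KO transgene below; the sources used here give neither strain, number of clones nor the promoter of the transgene.

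The labels were checked at the 1 peak within Firre. Its H3K27me3 counts at 0 and 48 h were 1 and 0 in WT control, 263 and 57 in WT transgene, 172 and 47 in KO transgene. In the line labelled KO control they were 164 and 177. Input per base over this peak, relative to all peaks of chromosome X, was 10.8 and 11.3 in the line labelled KO control, against 0.453 and 0.946 in WT control. It was 14.2 and 15.7 in WT transgene and 10.2 and 11.2 in KO transgene. The line labelled KO control thus held Firre sequence in excess, which goes against its label. Any KO direction and any comparison of transgene with control lines below carries this reservation. The cell label was checked by peaks: of 12 housekeeping genes 1 had a peak, and of 10 genes of embryonic stem cell identity 2 had one, Esrrb and Lin28a. Of these 2, 1 was called higher in H3K27me3 in the test against input described below (log2 0.39). Their ratios over input, also described below, were 0.867 and 1.31. The housekeeping count does not bear on the type of cell, so the check is a weak one. Counts over all peaks summed to between 10380781 and 14787938 per H3K27me3 library and between 3340654 and 6244333 per input library, with the lowest of each in the line labelled KO control at 0 h.

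The sequences just before 4 transcription starts are shown because they frame the results: Neurod2 and Neurog1 had the strongest mark, Neurod1 had the largest fall among the members whose change passed the test, and Olig2 had a CpG-rich start outside any peak. Each is the 250 bases before the start, 5′ to 3′ on the gene's strand, from RefSeq on GRCm38.p6 (mm10), with CpG dinucleotides in capitals. They lie at chr11:98329646-98329895 (minus strand, Neurod2), chr13:56252181-56252430 (minus strand, Neurog1), chr2:79456637-79456886 (minus strand, Neurod1) and chr16:91225300-91225549 (plus strand, Olig2).
Neurod2: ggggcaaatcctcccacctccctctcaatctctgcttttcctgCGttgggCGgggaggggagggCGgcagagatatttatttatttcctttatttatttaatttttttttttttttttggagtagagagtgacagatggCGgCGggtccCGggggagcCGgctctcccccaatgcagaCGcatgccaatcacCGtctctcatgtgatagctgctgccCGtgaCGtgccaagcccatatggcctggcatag
Neurog1: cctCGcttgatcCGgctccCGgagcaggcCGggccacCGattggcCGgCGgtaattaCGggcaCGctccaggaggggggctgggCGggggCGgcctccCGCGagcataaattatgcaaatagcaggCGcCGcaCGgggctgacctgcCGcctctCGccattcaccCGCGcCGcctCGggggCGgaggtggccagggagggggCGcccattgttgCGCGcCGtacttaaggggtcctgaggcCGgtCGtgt
Neurod1: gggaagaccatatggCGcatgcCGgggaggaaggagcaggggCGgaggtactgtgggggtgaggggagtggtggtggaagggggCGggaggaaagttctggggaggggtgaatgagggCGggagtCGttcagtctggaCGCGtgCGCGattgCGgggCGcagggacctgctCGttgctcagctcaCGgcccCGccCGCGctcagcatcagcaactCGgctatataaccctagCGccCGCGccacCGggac
Olig2: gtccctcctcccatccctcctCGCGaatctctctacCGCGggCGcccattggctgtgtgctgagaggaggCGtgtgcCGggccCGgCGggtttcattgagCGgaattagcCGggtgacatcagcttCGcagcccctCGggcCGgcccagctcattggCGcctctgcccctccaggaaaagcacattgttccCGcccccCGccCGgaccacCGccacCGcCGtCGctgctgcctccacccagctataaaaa

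The printed stretches held 11 CpG at Neurod2, 29 at Neurog1, 22 at Neurod1 and 22 at Olig2. RefSeq promoter windows of 300 bases, from 250 before to 50 after the start, were found for 7 of the 9 members. CpG numbers in these windows were 32 at Neurog1, 26 at Neurod1, 25 at Olig2, 20 at Atoh1, 19 at Neurog3, 16 at Neurod2 and 10 at Neurog2. All 7 were above the median of 7 over 32851 promoters. The start lay inside the member's peak for 6 of the 7, the exception being Olig2, while 30.1% of all promoter starts lay in a peak. The number of CpG did not follow the strength of the mark: Neurod2 had one of the lower CpG numbers and the highest H3K27me3 ratio, and Olig2 had the third highest CpG number and a ratio near 1.

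The E-box letters CANNTG, which read the same on both strands, occurred 3 times in the Neurod2 window, 1 time each at Neurog1, Neurog3 and Neurod1, and not at Neurog2, Atoh1 or Olig2, whereas 72.3% of all promoters of this length held at least 1. Of the 2 more specific forms, which overlap with CANNTG by construction, CAGATG (on either strand) was found at Neurod2 only and in 17.2% of promoters, and CAGCTG at Neurog3 only and in 16.3%. TATAAA, on either strand, was found at Olig2 only and in 13.6% of promoters. These are matches of letters and nothing was measured of binding.

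Broad H3K27me3 domains covered the whole gene at 7 of the 8 members with a peak. Neurod2 on chromosome 11 (gene 98325415 to 98329645) lay in a domain of 51888 bp (98303183 to 98355071), Neurog3 on chromosome 10 (62133090 to 62134763) in 35843 bp (62106540 to 62142383), and Neurog2 on chromosome 3 (127632733 to 127635636) in 33153 bp (127621090 to 127654243). Atoh1 on chromosome 6 (64729125 to 64731245) had 32312 bp (64716187 to 64748499). These 4 domains extended at least 9293 bp to either side of the start. Neurog1 on chromosome 13 (56250478 to 56252180) had 14465 bp (56244885 to 56259350), Bhlhe22 on chromosome 3 (18054325 to 18057514) had 12492 bp (18048729 to 18061221), and Neurod1 on chromosome 2 (79452637 to 79456636) had 11428 bp (79451236 to 79462664). The median width of all peaks was 2356 bp, and 11392 peaks (11.1%) were at least 10 kb wide. The 7 members were thus all in the wide class, and the annotation gives gene spans without exons or UTRs.

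**Figure D1:**
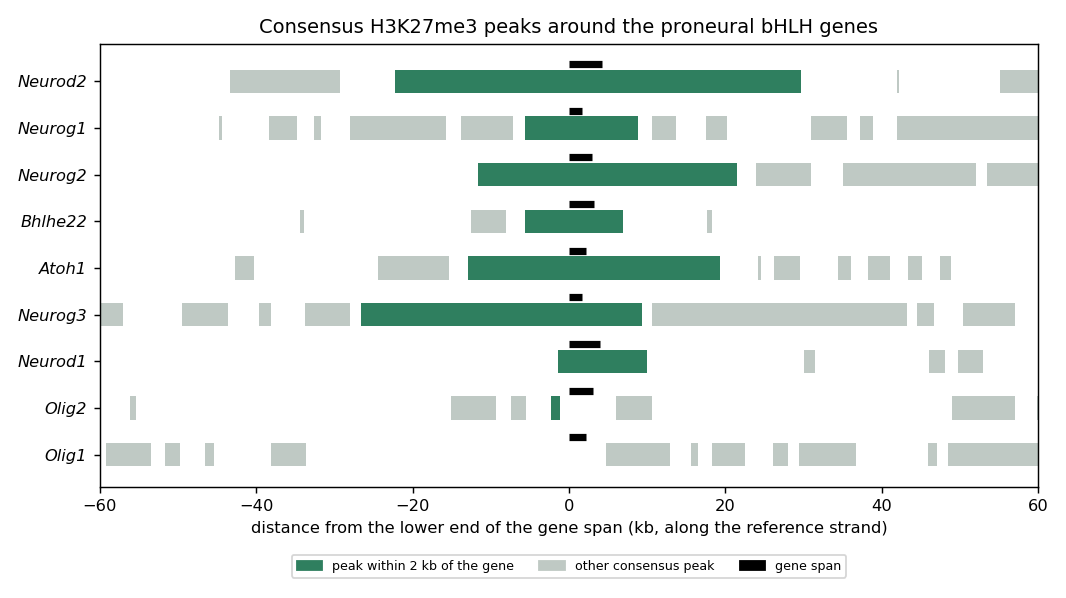
Consensus H3K27me3 peaks around the 9 proneural bHLH genes, with distance from the lower end of each gene span in kb on the x axis and 1 gene per row; green bars are peaks within 2 kb of the gene, grey bars other peaks, and black lines the gene spans. The green domains at 7 genes cover the gene span, from 51888 bp at Neurod2 to 11428 bp at Neurod1, the Olig2 peak stops before its gene, and Olig1 has no green bar.

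In 5 cases other annotated genes overlapped the domain or lay within 2 kb of it. These were Ppp1r1b and 4 further annotated genes at the Neurod2 domain, Fam241b at the Neurog3 domain, and 1 further annotated gene each at the Neurog1, Neurog2 and Atoh1 domains. The values of these 5 members therefore belong to a domain and not to a single gene. The Neurod1, Olig2 and Bhlhe22 peaks had no other gene within 2 kb. Neurod1 stood most alone, with the nearest peaks 175618 and 20080 bp away, whereas the Neurog3 domain was parted from its neighbours by 1449 and 1351 bp.

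The caller's own fold enrichment, deposited by the authors per peak and not per library, was 4.16 at Neurod2, a value that only 4 peaks exceeded, 3.57 at Neurog1, 3.15 at Neurog2, 2.84 at Bhlhe22, 2.73 at Atoh1, 2.57 at Neurog3, 2.33 at Neurod1 and 1.91 at Olig2. The median over all peaks was 1.53. The authors' −log10 q-value ran from 56.4 at Neurod2 to 5.85 at Olig2, and it grows with the reads in a peak as well as with its fold.

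The Olig locus departed from this picture. The Olig2 peak (chromosome 16, 91223273 to 91224411) was 1138 bp wide and ended 1139 bp before the gene (91225550 to 91228677), so the gene span was not covered at all. The next peak began at 91231619, which leaves 7208 bp over Olig2 without a peak. Olig1 (91269769 to 91271939) lay in a stretch of 38439 bp without a peak, and the nearest peaks were 33661 bp before it and 2608 bp after it. A window of 5 kb in place of 2 kb would have given Olig1 a peak. The 2 peaks to either side of Olig2 had ratios over input of 1.07 ± 0.223 and 1.05 ± 0.145 (SD, n = 8), and the first peak beyond Olig1 had 0.995 ± 0.150. Their folds in the authors' peak list were 2.06, 2.05 and 1.86, above the median of all peaks.

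H3K27me3 over input was computed per library as the peak's share of all H3K27me3 reads in consensus peaks over its share of the input reads in them. A ratio of 1 therefore marks the average over peaks and not an absence of the mark, and the ratio from pooled libraries had a median of 0.863 over all peaks. Neurod2 was the highest at 2.17 ± 0.0802 (SD, n = 8), and 55 of all peaks had a higher pooled ratio. Neurog1 followed at 2.15 ± 0.244, with 79 peaks higher. Neurog2 had 1.74 ± 0.185, Bhlhe22 1.62 ± 0.122 and Atoh1 1.47 ± 0.123. Neurog3 had 1.38 ± 0.0527, Neurod1 1.30 ± 0.218 and Olig2 1.02 ± 0.204.

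The order was firm in parts only. Neurog1 was above Neurog2 in 8 of 8 libraries, Bhlhe22 above Atoh1 in 7 and Neurod1 above Olig2 in 6, and in these pairs the difference of means exceeded the larger SD. Neurod2 and Neurog1, Neurog2 and Bhlhe22, Atoh1 and Neurog3, and Neurog3 and Neurod1 differed by less than the larger SD, with the first ahead in 5, 5, 5 and 4 of 8 libraries. The ranges over libraries overlapped in all 7 neighbouring pairs. The order did not follow the developmental roles, since the later acting Neurod2 and Neurod1 stood at opposite ends of the 7 with a domain.

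**Figure D2:**
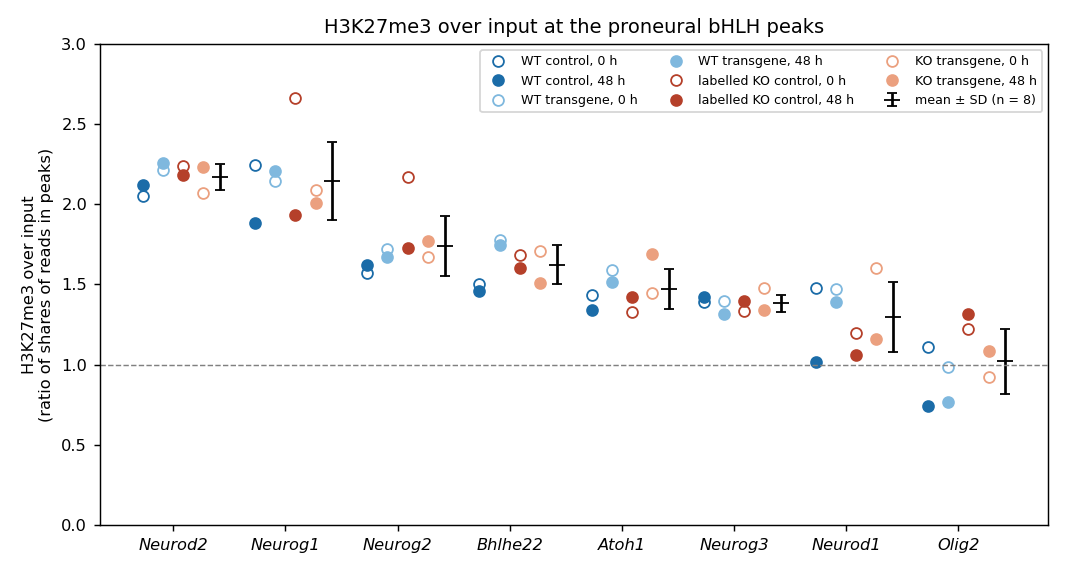
H3K27me3 over input (ratio of the peak's shares of reads in peaks, y axis from 0) in each of 8 conditions for the 8 members with a peak; colours are the 4 lines, open points 0 h, filled points 48 h, black bars mean ± SD (n = 8), and the dashed line is 1. Neurod2 and Neurog1 average 2.17 and 2.15, Olig2 1.02, and the open red points of Neurog1 (2.66) and Neurog2 (2.17) from the line labelled KO control stand above the other libraries.

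In the line order WT control, WT transgene, labelled KO control and KO transgene, the Neurod2 ratio at 0 h was 2.05, 2.21, 2.24 and 2.07, and at 48 h 2.12, 2.26, 2.18 and 2.24. No library stood apart, and the groups by background and by time overlapped. Neurog1 had 2.24, 2.15, 2.66 and 2.09 at 0 h and 1.88, 2.205, 1.93 and 2.01 at 48 h. The highest Neurog1 value came from the labelled KO control at 0 h, whose shallow input gave 84 reads there against 179 to 191 in the other 7 libraries. Neurod1 had 1.48, 1.47, 1.20 and 1.60 at 0 h and 1.01, 1.39, 1.06 and 1.16 at 48 h. In each line the later Neurod1 value was the lower, and the times overlapped across lines. Olig2 had 1.11, 0.985, 1.22 and 0.925 at 0 h and 0.743, 0.769, 1.32 and 1.09 at 48 h, from 34 to 52 H3K27me3 and 10 to 26 input reads per library. At that depth the Olig2 ratio is coarse, and the WT and KO values overlapped.

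The remaining members differed in their spread between libraries. Neurog3 stayed between 1.31 and 1.48, Atoh1 between 1.33 and 1.69, and Bhlhe22 between 1.46 and 1.78. Neurog2 stayed between 1.57 and 1.77 in 7 libraries and reached 2.17 in the labelled KO control at 0 h. Its input reads there were 205, against 419 to 470 in the other libraries. Per length, H3K27me3 in CPM (over reads in peaks) per kb was 5.41 ± 0.985 at Neurod2, 4.43 ± 0.357 at Neurog1, 3.66 ± 0.186 at Neurog2, 3.30 ± 0.227 at Bhlhe22, 3.02 ± 0.189 at Atoh1, 2.88 ± 0.0561 at Neurog3, 2.75 ± 0.398 at Olig2 and 2.54 ± 0.324 at Neurod1 (SD, n = 8). On this scale of level Olig2 was not the lowest, since its input was also high, at 2.79 ± 0.615 against 1.98 to 2.49 at the others. The level is not divided by input, and at Neurod2 it differed between the backgrounds. It was 4.29 to 4.83 there in the WT libraries and 5.68 to 6.98 in the KO libraries, where input was also higher, as described below. The Neurod2 and Neurog1 levels overlapped in the WT libraries and were apart in the KO libraries.

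Against input in a model with the condition as block, 7 of the 8 members with a peak were called higher in H3K27me3 at an adjusted p of 0.05 (edgeR's quasi-likelihood F test over 18360 gene regions, Benjamini-Hochberg), beside 28.7% of all gene regions. The log2 difference was 1.12 ± 0.02 (SE) at Neurod2, 1.08 ± 0.04 at Neurog1, 0.78 ± 0.03 at Neurog2, 0.69 ± 0.05 at Bhlhe22, 0.55 ± 0.03 at Atoh1, 0.47 ± 0.03 at Neurog3 and 0.36 ± 0.06 at Neurod1. Olig2 had -0.03 ± 0.14 (adjusted p = 0.845). The median over the members was 0.62 and over all regions -0.07. Peaks were called on this mark, so their enrichment describes strength and is no test of presence. Library sizes were total counts over consensus peaks. A log2 of 0 therefore marks the average over peaks, as a ratio of 1 does, and not the level of input. Calls of higher or lower than input are relative to that average.

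The list called other neural bHLH, not all of whose genes act mainly in neurons, held 16 genes. All 16 had a peak, as had 20257 genes over the whole annotation, whose share of all genes was not computed. Of the 16, 12 were called higher than input and 1 lower, beside 28.7% and 37.5% of all regions. Among those named here, the log2 difference ran from 1.00 ± 0.03 at Tal1, a blood and midbrain regulator, over 0.87 ± 0.03 at Ptf1a, 0.85 ± 0.05 at Bhlhe23, 0.72 ± 0.04 at Olig3, 0.63 ± 0.04 at Nhlh2, 0.61 ± 0.04 at Atoh7 and 0.52 ± 0.02 at Atoh8 to 0.36 ± 0.03 at Ascl5, 0.34 ± 0.05 at Ascl2, 0.33 ± 0.05 at Nhlh1 and 0.27 ± 0.05 at Neurod6. Neurod4, a relative of Neurod1 that acts in the retina, was lower at -0.51 ± 0.06. Msgn1, Ascl4 and Tal2 did not pass, with 0.21 ± 0.10, 0.03 ± 0.07 and -0.10 ± 0.06. The Neurod family was therefore spread, with Neurod2 far above the average over peaks, Neurod1 and Neurod6 moderately above and Neurod4 below.

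Of the other lists, all 8 Pax genes, 13 of 16 regions of the Notch pathway, 10 of 16 of downstream neuronal genes and 3 of 5 of E proteins and Id genes were called higher than input, beside 28.7% of all regions. Called lower were 1 Notch region, 3 downstream neuronal regions and 1 region of E proteins and Id genes, beside 37.5% of all regions. The median ratio over input of the Pax list, 1.56 ± 0.0543 (SD of the list median, n = 8), was close to the 1.55 ± 0.0772 of the members, while the widest peak per Pax gene had a median of 65404 bp against 23389 bp for the members. No test of the difference between lists was made.

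Between 0 and 48 h of doxycycline, H3K27me3, not divided by input, was lower at 3 of the 8 members in a fit over all 4 lines. These were Neurog1, Neurod1 and Neurod2, beside 1.49% of all 18362 gene regions. The fitted falls were small, and all 8 members had a log2 change below 0, with a median of -0.07 against 0.00 over all regions. The question asked here is of time and doxycycline together, since both transgene and control lines enter. In bulk chromatin, fewer marked cells and less mark per cell cannot be told apart.

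Neurod1 had 377, 453, 312 and 409 reads at 0 h and 353, 429, 291 and 386 at 48 h in the line order above. The ratio of its share of reads in peaks at 48 h to that at 0 h came to 0.883, 0.972, 0.781 and 0.814 in the same order. All 4 lines fell below 1, and the 95% counting intervals of the KO lines (0.664 to 0.920 and 0.707 to 0.938) did not reach 1, while those of the WT lines did. The fit gave a log2 change of -0.20 ± 0.05 (edgeR, adjusted p = 0.0128).

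Neurog1 had 897, 931, 695 and 832 reads at 0 h and 778, 885, 706 and 910 at 48 h. Its 48 h over 0 h share was 0.818 in WT control (95% interval 0.742 to 0.901), 0.976 in WT transgene (0.889 to 1.07), 0.851 in the labelled KO control (0.765 to 0.946) and 0.943 in KO transgene (0.858 to 1.04). Both control lines fell outside counting error and both transgene lines stayed within it. The fit gave -0.15 ± 0.04 (edgeR, adjusted p = 0.00382), and Neurog1 was the only member called when peaks were tested singly (-0.16 ± 0.04, adjusted p = 0.0191), beside 0.102% of all peaks. At Neurod2 the shares were 0.959, 0.972, 0.922 and 0.969, and only the labelled KO control fell outside counting error (0.882 to 0.964). The fit gave -0.06 ± 0.02 (edgeR, adjusted p = 0.0486), just past the threshold.

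Of the members that did not pass, Olig2 had the largest value, -0.29 ± 0.16, with 48 h over 0 h shares of 0.808, 0.829, 0.750 and 0.885 and intervals that all included 1, since it rests on few reads. Neurog2 had -0.08 ± 0.03 (edgeR, adjusted p = 0.0838); it passed without the KO transgene library of 0 h (-0.12 ± 0.03, adjusted p = 0.0232) or of 48 h, and was -0.05 ± 0.03 without either library of the labelled KO control. Of the others, Atoh1 had -0.05 ± 0.03, Bhlhe22 -0.05 ± 0.05 and Neurog3 -0.04 ± 0.03. The share at 48 h was lower in 3 of 4 lines at Neurog2, Atoh1 and Bhlhe22 and in 4 of 4 at the others.

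**Figure D3:**
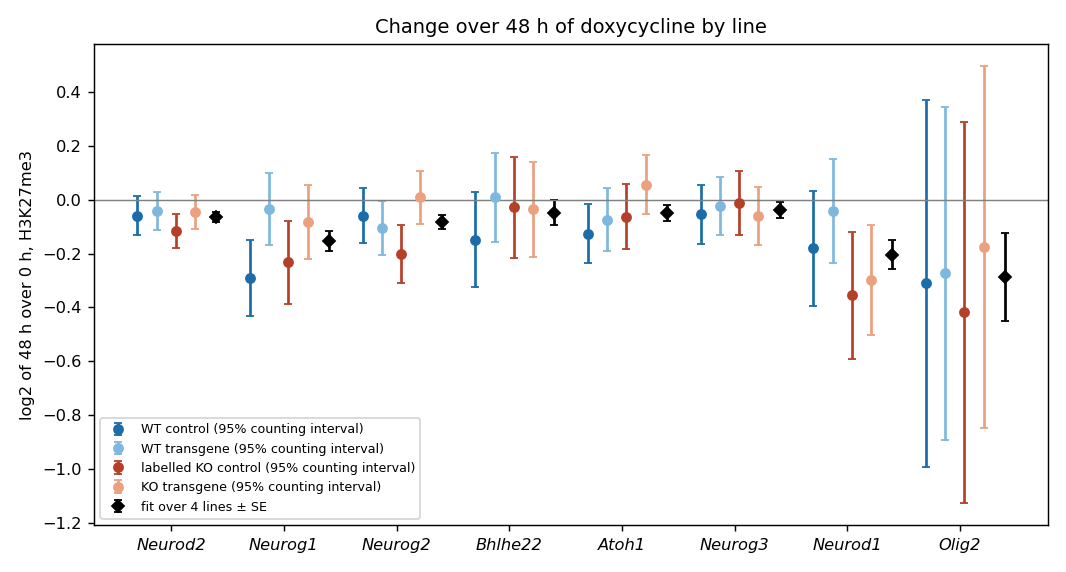
Log2 of 48 h over 0 h of H3K27me3 share for the 8 members with a peak; coloured points are the 4 lines with 95% counting intervals and black diamonds the fit over 4 lines ± SE. Neurog1 shows the control lines lower (0.818 and 0.851 as ratios) than the transgene lines (0.976 and 0.943), Neurod1 lies below 0 in every line, and the Olig2 intervals are the widest.

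Strongly marked peaks as a class lay slightly below 0. Among the 3541 peaks with a ratio at least that of Neurod1, 2.29% were called lower and none higher at 48 h, the median log2 change was -0.04 and 70.7% were below 0. With an offset per library that follows the enrichment, only Neurod1 remained called (1 of 8), Neurog1 was -0.07 ± 0.04 (adjusted p = 0.414) and Neurod2 turned to 0.02. The 3 calls were also lost (0 of 8) with input as an offset, without the line block, and when either library of WT control or of the labelled KO control was left out. Neurog1 was then -0.11 ± 0.04 without WT control at 0 h (adjusted p = 0.262) and -0.13 ± 0.04 without the labelled KO control at 0 h (adjusted p = 0.0704). Neurod1 was also lost without either KO transgene library (-0.17 ± 0.06, adjusted p = 0.193 at 0 h), and Neurod2 when any single library was left out (adjusted p from 0.0607 to 0.422). With line as block, leaving out either library of a line takes that line out of the time contrast. The omissions of its 0 h and 48 h libraries are therefore nearly the same check. With input as an offset Neurod1 was -0.31 ± 0.10 (adjusted p = 0.379) and Neurog1 -0.17 ± 0.07 (adjusted p = 0.585), and only 3 of all regions were called lower. Neurod2 then turned to 0.04 ± 0.03 (edgeR, adjusted p = 0.889). DESeq2 called none, and gave an adjusted p for Neurod2 only (0.401); its unadjusted p was 0.0163 at Neurog1, 0.0237 at Neurod1 and 0.0337 at Neurod2.

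Partners and targets of the proneural proteins were read from lists. Their counts stand beside the 1.49% of all regions and 2.29% of strongly marked peaks called lower, and no test compares a list with other regions. Among E proteins and Id genes, 2 of 5 regions were lower at 48 h: Id2, whose product blocks bHLH dimers from binding DNA (-0.30 ± 0.07), and Tcf12, an E protein that pairs with proneural factors (-0.18 ± 0.03). Among 16 downstream neuronal regions 5 were lower, namely the T-box genes Eomes (-0.15 ± 0.04) and Tbr1 (-0.13 ± 0.03), the zinc-finger gene Insm1 (-0.15 ± 0.03), the homeobox gene Barhl2 (-0.11 ± 0.02), and Ebf3 (-0.06 ± 0.02). Hes7, a Notch target of the segmentation clock (-0.14 ± 0.04), was the only 1 of 16 Notch regions called, and Pax6 (-0.11 ± 0.02) and Pax3 (-0.09 ± 0.02) were 2 of 8 Pax regions. None of the 16 regions on the list called other neural bHLH was called, with a median of -0.04. At an unadjusted p below 0.05 (edgeR) there were 3 of them, beside 2457 of all 18362 regions. No listed region was called higher. Ebf3 and Pax3 were named after their values were seen. With input as an offset none of the first 8 remained called, and Eomes turned to 0.09. With the offset that follows enrichment, Id2, Tcf12 and Insm1 remained called, so that the downstream neuronal count fell from 5 to 1, that of the Notch regions from 1 to 0 and that of Pax from 2 to 0. Barhl2 was then -0.05 ± 0.02 (adjusted p = 0.212) and Pax6 -0.04 ± 0.02 (adjusted p = 0.469). Without the line block Tcf12 alone of the 8 was called. Leaving out single libraries ended the call at Id2 and Hes7 (any transgene library, Id2 then reaching -0.19), Insm1 (either WT transgene library), Tbr1 (either KO transgene library) and Eomes (any library except those of WT transgene), and at none of Tcf12, Barhl2 and Pax6.

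The study's own question is whether inducing Firre changes H3K27me3, which is the transgene by time term. No member was called, by edgeR or by DESeq2, among gene regions (0.049% of all regions called) or among peaks (0.00583% of all peaks called). An unadjusted p below 0.05 was found at 989 of all 18362 regions and at 1 member, Neurog1. Its log2 difference between the 48 h change of transgene and control lines was 0.21 ± 0.07 (edgeR, unadjusted p = 0.00399, adjusted p = 0.776). The difference was 0.26 in the WT and 0.15 in the KO background, as values without a test. Neurog2, Atoh1, Neurod1, Bhlhe22, Neurod2 and Olig2 had 0.08 ± 0.05, 0.10 ± 0.06, 0.10 ± 0.11, 0.08 ± 0.09, 0.05 ± 0.04 and 0.13 ± 0.33, and Neurog3 -0.01 ± 0.06. At each member these errors leave room for a positive difference as large as its own fall over time.

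Between KO and WT lines, only Neurod2 on chromosome 11 was called, at 0.46 ± 0.04 on the log2 scale among gene regions (13.2% of all regions called in either direction) and 0.48 ± 0.04 among peaks (4.42%). Its reads were 3020, 3074, 3374 and 3195 in the WT libraries and 3760, 4140, 3882 and 4359 in the KO libraries, with no overlap. Input moved in the same way at Neurod2, by 0.45 ± 0.04, beside 5.7% of all regions called in input. With input as an offset the difference was 0.03 ± 0.04 (adjusted p = 0.847).

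Chromosome 11 as a whole moved with it. Its other peaks took 8.34 ± 0.109% of input reads in WT and 10.5 ± 0.661% in KO libraries, and 8.08 ± 0.110% and 10.2 ± 0.672% of H3K27me3 reads (SD, n = 4 each, p = 0.0286 in an exact permutation test, two-sided, in both cases, which is the lower limit for 4 against 4 libraries, with both times of a line taken as separate). Of chromosome 11 peaks, 50.4% were called higher in KO, with a median of 0.34. Relative to the other chromosome 11 peaks, Neurod2 held 0.294 ± 0.0191% of reads in WT and 0.318 ± 0.0133% in KO (exact two-sided permutation p = 0.0857). Within the chromosome the groups overlapped. H3K27me3 over input at Neurod2 was 2.16 ± 0.0934 in WT and 2.18 ± 0.0775 in KO lines, a difference smaller than the spread.

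**Figure D4:**
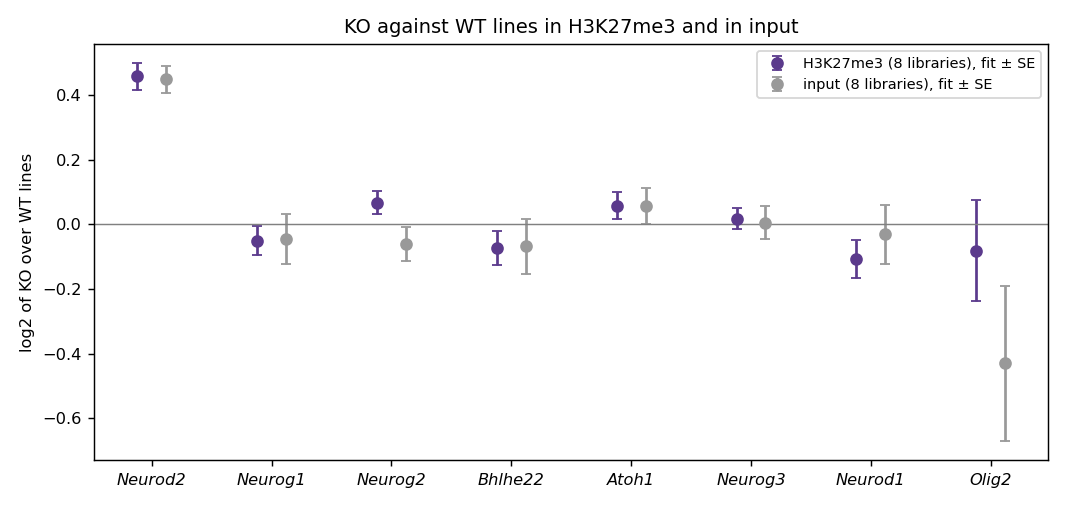
Log2 of KO over WT lines (y axis) for H3K27me3 (purple) and input (grey), fit over 8 libraries each ± SE, for the 8 members with a peak. Neurod2 is raised in both, by 0.46 and 0.45, and the other members lie within 0.11 of 0 in H3K27me3.

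The other 7 members had KO against WT differences from -0.11 ± 0.06 at Neurod1 to 0.07 ± 0.03 at Neurog2, none called. With only 2 lines per background, of which 1 goes against its label, a difference between KO and WT cannot be told apart from one between lines.

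Between transgene and control lines no member was called in H3K27me3 by edgeR or by DESeq2, beside 1.44% of all regions; DESeq2 gave an adjusted p for 4 of the 8. The largest value was Neurod1 at 0.20 ± 0.06 (edgeR, adjusted p = 0.088), the only 1 at an unadjusted p below 0.05, beside 2362 of all 18362 regions. Atoh1 had -0.08 ± 0.04, and its input had -0.25 ± 0.06 (edgeR, adjusted p = 0.00747), beside 0.302% of all regions called in input; this fit has 2 lines per arm, and the 0 and 48 h libraries of each count singly. Atoh1 input reads at 0 and 48 h were 463 and 439 in WT control, 340 and 360 in WT transgene, 250 and 417 in the labelled KO control and 412 and 366 in KO transgene.

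In WT transgene the input share of the Atoh1 peak was 0.779 of that in WT control, that of the 76 other peaks within 1 Mb was 0.838, and that of chromosome 6 as a whole was 1.01. H3K27me3 at Atoh1 was 0.875 of WT control. In KO transgene the Atoh1 peak had 0.869 and its neighbourhood 0.968. At the other members outside chromosome 11, the neighbourhoods stayed between 0.899 and 1.01 in all lines. With input as an offset the transgene difference at Atoh1 in H3K27me3 was 0.17 ± 0.06 (edgeR, adjusted p = 0.503), so its sign turns with that choice.

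**Figure D5:**
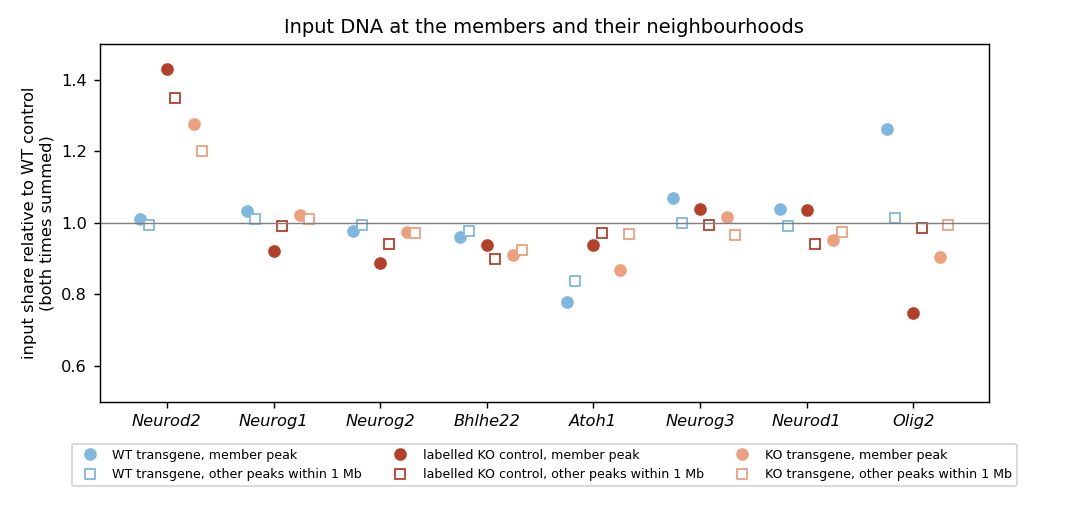
Input share relative to WT control (both times summed, y axis from 0.5 to 1.5) at each member peak (filled circles) and at the other peaks within 1 Mb (open squares) in the 3 other lines. Neurod2 is raised in both KO lines with its neighbourhood (1.35 and 1.20), and Atoh1 is lowered in WT transgene with its neighbourhood (0.838); the Olig2 circles rest on few reads.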

How the data were processed

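H3K27me3 and input libraries (8 each) were grouped by genotype, antibody and time labels. The deposited table gave raw read counts per consensus peak and library. The authors' deposited peak list gave a score (10 times the −log10 q-value), a fold enrichment (ratio) and −log10 q-values per peak. The build was mm10 and the tools were MACS2 2.2.71, BWA 0.7.17-r1188, DESeq2 1.26.0 and featureCounts, per the submitters' processing notes, with no role stated. The sources used here do not name the libraries behind the peak call, and a call on some would favour regions strong there. Starts are printed as deposited.

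Counts were summed per gene region (peaks within 2 kb of RefSeq GRCm38.p6 spans, protein-coding and lncRNA; 18362 regions for 20257 genes; genes with the same peaks share a region). The test was edgeR 4.0.16 (R 4.3.3; quasi-likelihood F, TMM, filterByExpr, Benjamini-Hochberg at 0.05 over all regions or peaks), checked on simulated data. Time had line as block, induction was the transgene by time term, and background and transgene were additive with time; enrichment used total counts. Conditions have no replicates, so p-values measure spread between lines and libraries, which may be technical. SE is the log2 change over the root of F. Ratios of shares carry 95% exact binomial intervals, which cover counting error only. The members and lists were chosen with earlier results of these data known. All 9 members are named, and of other lists the 8 largest time changes past the test. The enrichment of 1 gene counted among the other neural bHLH genes is not reported here. Alternatives included DESeq2 1.42.0.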

Additional observations from a re-analysis of the deposited data

How the results depend on the processing

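The 3 time calls among member regions became 0 with DESeq2 (an adjusted p existed for 1 of 8), 0 with input as an offset, 0 without the line block and 1 with an offset that follows enrichment, and ranged from 0 to 2 when 1 library was left out (Neurog1 and Neurod1, or Neurog1 and Neurog2, which the full fit did not call). Single peaks had 1 call, and 0 with DESeq2, input as an offset, no line block or the enrichment offset, 2 with a mean count of at least 50, and 0 to 2 without 1 library. Over all regions 273 were lower at 48 h, against 31 with DESeq2, 3 with input as an offset, 3 without the line block and 118 with the enrichment offset. The single KO against WT call became 0 with input as an offset or, by construction, with chromosome 11 left out, for regions and for peaks. The 7 enrichment calls and the 0 induction and 0 transgene calls did not move under the alternatives run. Of 747 tested values of single genes under an alternative, 649 kept their direction and side of the threshold and 32 turned sign. These are not independent checks. The setting without a filter on low counts tested the same regions as the main fit, so its values could not move. In the time and induction fits, leaving out either library of a line removes that line from the contrast, so both omissions nearly repeat each other. Of 16 induction values within 1 background, without a test, 3 had the other sign (Neurog2 -0.044 and Neurog3 0.0302 in WT, Bhlhe22 -0.0071 in KO).

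With input as an offset, time turned to 0.0402 at Neurod2, 0.0417 at Atoh1 and 0.0874 at Eomes, induction to -0.0408 at Bhlhe22, KO against WT to 0.0363 at Neurog1, 0.31 at Olig2 and 0.0156 at Bhlhe22, and transgene to -0.038 at Neurog1, -0.0486 at Neurog2, -0.0145 at Neurog3, 0.0221 at Neurod2, 0.17 at Atoh1 and -0.18 at Olig2. With the enrichment offset, time at Neurod2 was 0.0224. With 5 kb windows Olig2 was 0.15 (KO against WT), -0.0384 (transgene) and 0.0213 (enrichment). Without 1 library, induction ranged from -0.0286 to 0.0148 at Neurog3 and -0.0327 to 0.22 at Neurod1, KO against WT from -0.0014 to 0.11 at Atoh1 and -0.17 to 0.0034 at Olig2, transgene from -0.0044 to 0.0515 at Neurog2 and 0.00 to 0.10 at Bhlhe22, and enrichment from -0.0815 to 0.0293 at Olig2; none of these was called. A mean count of at least 50 left out Olig2. The cause was not tested. Depth limits Olig2 most. No paired analysis was possible over replicate numbers, because the labels carry none; the times of each line were paired by the line block, whose removal is given above.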
